A study of Mus musculus with 46 samples.

Results

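The genes described here are 10 genes of iron storage, haem breakdown, plasma iron and haem binding and haem synthesis: Hmox1, Blvra, Blvrb, Fth1, Ftl1, Ncoa4, Cp, Hp, Hpx and Alas1. They were taken by name from a count table with 46011 complete entries, and were chosen with earlier results of these data known. All 10 passed the filter on low counts in each comparison. RNA was sequenced from 46 AB1-HA tumors, a mesothelioma cell line carrying the HA antigen, grown subcutaneously on both flanks of male BALB/c mice aged 8 to 10 weeks. Mice were treated with cyclophosphamide (CY, 200 mg/kg), and of each pair of tumors 1 was removed and sequenced, while the other stayed to show the response. Tumors came from complete responders (CR) or from mice labelled PR, which the labels call partial responders and the methods progressors. There were 13 CR and 13 PR tumors at Day-1 (1 day before CY, on day 9 after inoculation), 5 CR and 5 PR at Day+3 (3 days after CY, on day 13) and 5 CR and 5 PR at Day+7 (7 days after CY, on day 17). The Day-1 tumors had not been exposed to CY. Time after CY, tumor age and sequencing depth cannot be told apart, since there were no untreated tumors of the later days.

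Cells keep iron in ferritin, a shell of heavy and light chains, and release it when the shell is taken to the lysosome. Haem from old red cells is opened by haem oxygenase, which yields iron, carbon monoxide and biliverdin, and this work is done largely by macrophages of spleen and liver. In plasma, haptoglobin and haemopexin take up free haemoglobin and haem, and ceruloplasmin oxidises iron as it leaves cells. All 3 of these plasma proteins are made mainly by liver and are known as acute phase proteins.

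Ferritin synthesis is set largely at translation, by a hairpin in the 5′ untranslated region (UTR) that iron regulatory proteins hold when iron is scarce. A search for a C, a stem of 5 bases, the loop CAGTGN and 5 bases that pair with the stem (G-T pairs allowed, sense strand only) found 1 match in each ferritin chain. The matches are shown because both chains carry the same type of control while their counts moved apart, as described below. The capitals mark the unpaired C and the loop.
Fth1: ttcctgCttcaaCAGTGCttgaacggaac
Ftl1: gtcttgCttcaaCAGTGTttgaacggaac
These 29 bases lie at chr19:9982732-9982760 on the plus strand for Fth1 and at chr7:45459779-45459807 on the minus strand for Ftl1 (GRCm38, GENCODE M21 transcripts), in the 5′ UTR of both genes. They were identical at 26 of 29 positions. Of 21181 genes with an annotated 5′ UTR, 31 (0.146%) held a match.

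Levels are given as CPM, counts relative to the size of their library, with library sizes scaled by the TMM method. Differences are log2 fold changes from edgeR's quasi-likelihood test with their standard error (SE), and a gene is called at a Benjamini-Hochberg adjusted p under 0.1 over all genes tested. Summed counts per tumor were 10.2e6 to 14.2e6 at Day-1, 15.4e6 to 18.7e6 at Day+3 and 16.05e6 to 19.4e6 at Day+7. Some tumors held over 10 CPM of the skin keratin gene Krt5, and those at or under it numbered 8 CR and 8 PR at Day-1, 5 CR and 4 PR at Day+3 and 3 CR and 2 PR at Day+7. Of 8 mesothelium markers, 4 passed the filter, and the list summed to 285 to 433 CPM in CR and 305 to 612 CPM in PR at Day-1, and to 63.7 to 143 CPM in CR and 58.6 to 80.2 CPM in PR at Day+7. In tissue RNA, more cells of a type and more RNA of a gene per cell cannot be told apart.

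After CY, the levels of all 10 genes changed with time. All 10 were higher at Day+3 than at Day-1, where 37.9% of 13194 genes were called higher and 39.6% lower. At Day+7 against Day-1, 9 were higher and Ncoa4 was lower, beside 43.0% of genes called higher and 42.8% lower. At Day+7 against Day+3 the counts were again 9 and 1, beside 38.8% higher and 36.5% lower. The median log2 fold change of the 10 genes was 0.82 at Day+3 and 1.52 at Day+7 against Day-1, where the median of all genes tested was -0.02 and -0.01. Most of the 13194 genes tested were called between any pair of days, so that a call alone says little about these genes. The share of all genes without overlap between days was not counted, which also limits what the separations below say.

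**Figure D1:**
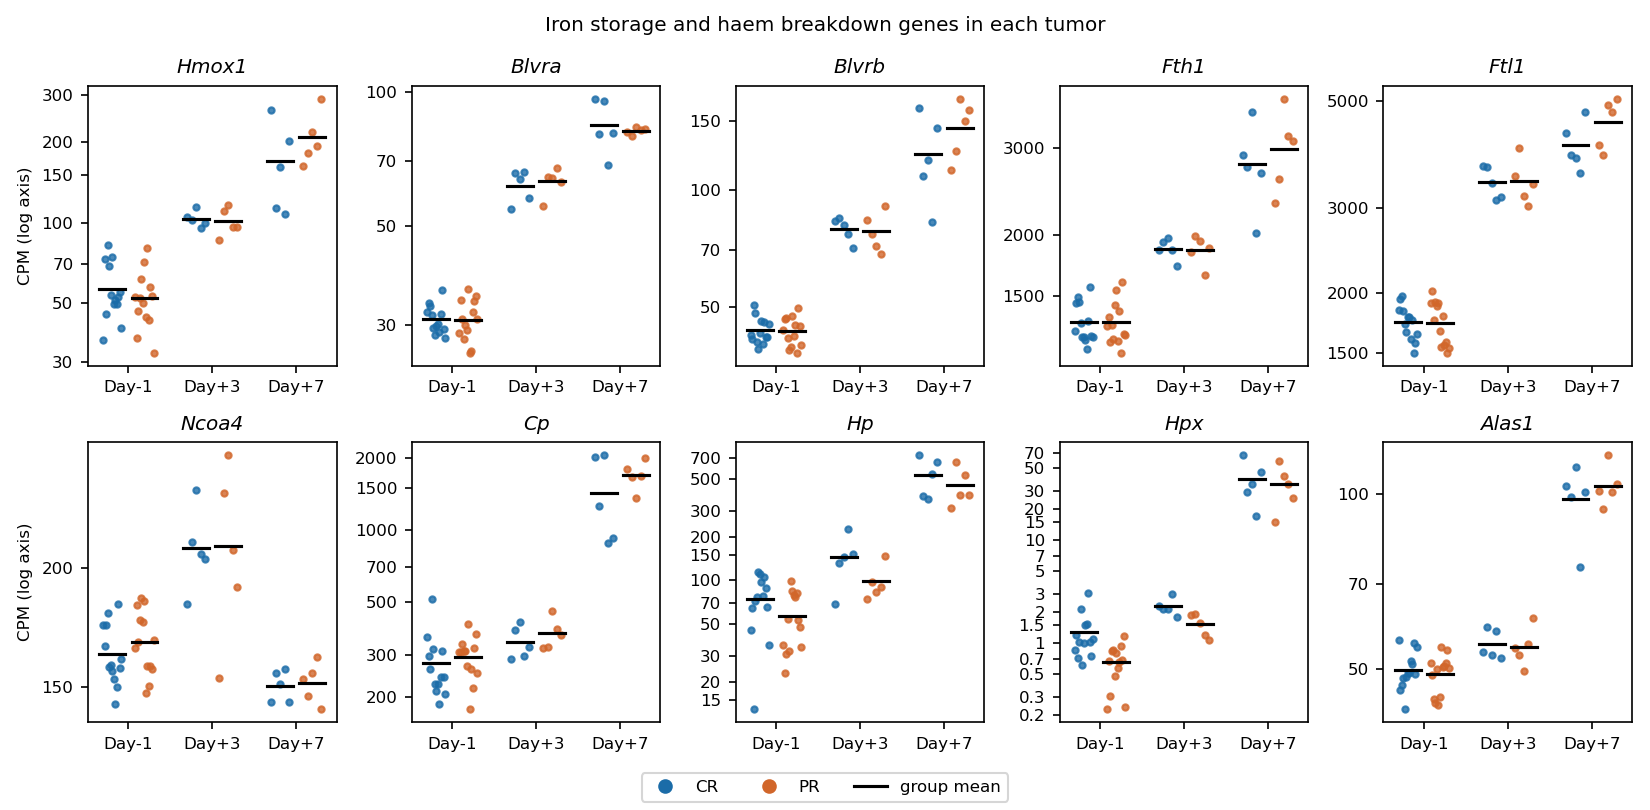
CPM (log axis, a separate scale in each panel) of the 10 genes in each of the 46 tumors by day, CR left of PR, with points for tumors and bars for group means. In every panel but that of Ncoa4, the 10 Day+7 tumors lie above all 26 Day-1 tumors, while CR and PR overlap within each day. The share of all genes whose days separate in this way was not counted.

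RNA of the 3 haem breakdown genes was higher at Day+3 than at Day-1 and higher again at Day+7. Hmox1 (chr8:75093621-75100589, GRCm38 as for all positions here) encodes the inducible haem oxygenase that opens the haem ring. At Day-1 its lowest, median and highest levels were 36.5, 52.5 and 82.2 CPM in CR and 32.5, 52.3 and 80.2 CPM in PR. At Day+3 it had 95.3, 99.7, 102, 104 and 115 CPM in the CR tumors and 86.0, 96.4, 96.5, 111 and 117 CPM in the PR tumors, and at Day+7 it had 107, 113, 162, 203 and 263 CPM in CR and 163, 181, 194, 218 and 291 CPM in PR. All 10 tumors of Day+3 and all 10 of Day+7 were above the highest Day-1 tumor, and CR and PR overlapped on each day. The log2 fold change against Day-1 was 0.87 (SE 0.12, adjusted p = 1.93e-08) at Day+3 and 1.79 (SE 0.12, adjusted p = 1.48e-18) at Day+7. Of the Day+7 tumors, 8 exceeded the highest Day+3 tumor, and Day+7 was above Day+3 by 0.92 (SE 0.15, adjusted p = 4.81e-07).

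Blvra and Blvrb encode biliverdin reductases, and that of Blvra turns the biliverdin released by haem oxygenase into bilirubin. Blvra (chr2:127070665-127097084) lay between 25.9 and 36.0 CPM in all 26 Day-1 tumors, between 54.5 and 67.7 CPM in the 10 Day+3 tumors and between 68.4 and 96.7 CPM in the 10 Day+7 tumors, so that the 3 days did not overlap. Its log2 fold change was 0.97 (SE 0.05, adjusted p = 7.38e-23) at Day+3 and 1.43 (SE 0.05, adjusted p = 6.54e-30) at Day+7, and by p it was the first of the 10 genes at Day+3. At Day+7 the 5 PR tumors were within 79.6 to 83.6 CPM and the 5 CR tumors spread over 68.4 to 96.7 CPM. Blvrb (chr7:27447978-27466144) averaged 43.4 CPM in CR and 43.3 CPM in PR at Day-1, 79.2 and 78.2 CPM at Day+3 and 123 and 144 CPM at Day+7, in the same order. Of the Day+7 tumors, 9 exceeded the highest Day+3 tumor, and the log2 fold change against Day-1 was 0.82 (SE 0.06) and then 1.62 (SE 0.06).

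The RNA of both ferritin chains rose, and by unequal amounts at Day+3. Fth1 (chr19:9980598-9985098), the heavy chain that oxidises iron for storage, had 1149.7 to 1601 CPM at Day-1 over CR and PR together, 1657 to 1985 CPM at Day+3 and 2017 to 3777 CPM at Day+7, with no overlap of the days. Its log2 fold change against Day-1 was 0.45 (SE 0.06, adjusted p = 1.85e-08) at Day+3 and 1.12 (SE 0.06, adjusted p = 1.82e-21) at Day+7. Ftl1 (chr7:45457944-45459884), the light chain that helps the iron core to form, had 1498 to 2011 CPM at Day-1, 3031 to 4004 CPM at Day+3 and 3541 to 5063 CPM at Day+7. Its change was 0.93 (SE 0.05, adjusted p = 6.77e-21) and 1.30 (SE 0.05, adjusted p = 4.87e-27), so that Ftl1 had most of its rise by Day+3 and Fth1 rose mainly afterwards.

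The ratio of Fth1 to Ftl1 counts within a library, which library scaling does not touch, showed the same shift. It is a ratio of counts and not of molecules, since the genes differ in length. At Day-1 its lowest, median and highest values were 0.686, 0.755 and 1.04 in CR and 0.653, 0.757 and 1.01 in PR. At Day+3 the ratio was 0.508, 0.530, 0.546, 0.583 and 0.599 in CR and 0.496, 0.528, 0.547, 0.557 and 0.611 in PR. At Day+7 it was 0.563, 0.570, 0.675, 0.712 and 0.932 in CR and 0.572, 0.611, 0.666, 0.670 and 0.767 in PR. All 10 Day+3 tumors were below the lowest Day-1 tumor, and 4 of the 10 Day+7 tumors were.

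The mean log2 ratio at Day+3 fell by 0.48 relative to Day-1 (two-sided permutation test with 100000 resamples, adjusted p = 0.00012 over 6 comparisons, from the smallest p that such a test can give). At Day+7 it was higher than at Day+3 by 0.28 (permutation adjusted p = 0.00216), and the difference from Day-1 was -0.20 (permutation adjusted p = 0.00824). Without the tumors over 10 CPM of Krt5, the difference of Day+7 from Day-1 was -0.05 (permutation adjusted p = 0.94), so that only the Day+3 shift and the return from it held. Between CR and PR the mean log2 ratio differed by -0.01 at Day-1, 0.02 at Day+3 and 0.05 at Day+7, with an adjusted p of 0.927 in each permutation test (exact at the later days). Entries for ferritin pseudogenes held at most 0.239% of the Ftl1 counts and 0.0126% of the Fth1 counts in any tumor, but reads of such copies may also have been counted in the genes themselves.

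**Figure D2:**
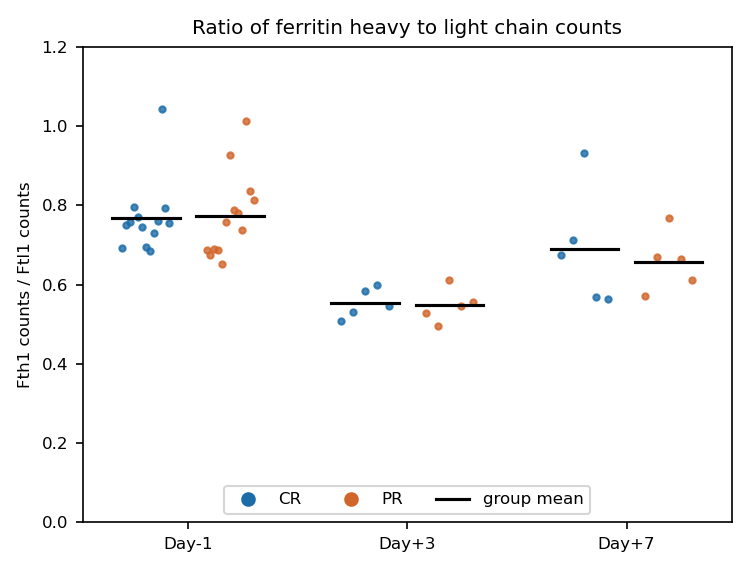
Fth1 counts divided by Ftl1 counts in each tumor by day, CR left of PR, with bars for group means on an axis from 0. The Day+3 tumors lie between 0.496 and 0.611, below all Day-1 tumors, and the Day+7 tumors spread over 0.563 to 0.932.

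Ncoa4 followed another course. Its product is the cargo receptor that carries ferritin to the lysosome to free its iron. Ncoa4 (chr14:32159865-32179855) had 144 to 183 CPM in CR and 148 to 186 CPM in PR at Day-1. At Day+3 it had 183, 204, 207, 213 and 241 CPM in CR and 153, 191, 209, 239.5 and 262 CPM in PR, and 8 of these 10 tumors exceeded the highest Day-1 tumor. At Day+7 it had 145, 145, 151, 155 and 157 CPM in CR and 142, 147, 153, 155 and 161 CPM in PR, and all 10 were below the Day-1 median of 163 CPM. The log2 fold change against Day-1 was 0.31 (SE 0.05, adjusted p = 5.50e-07) at Day+3 and -0.13 (SE 0.05, adjusted p = 0.0167) at Day+7. It fell by 0.44 between Day+3 and Day+7 (SE 0.06, adjusted p = 1.85e-08), while the RNA of both ferritin chains rose. The Day+7 difference from Day-1 is small, and in CR tumors alone it was -0.12 with an adjusted p of 0.131.

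The genes of the plasma proteins had most of their rise after Day+3, and their log2 fold changes at Day+7 were above those of the other genes. Cp (chr3:19957054-20009145), ceruloplasmin, had a lowest, median and highest level of 186, 243 and 514 CPM in CR and 178, 307 and 403 CPM in PR at Day-1. At Day+3 all 10 tumors, from 287 to 456 CPM, were within the Day-1 range, and the log2 fold change of 0.27 (SE 0.13) had the highest adjusted p of the 10 genes (0.0539). It was not called in CR alone (0.25, adjusted p = 0.224) or in PR alone (0.29, adjusted p = 0.158), nor without CR replicate 3 (0.23, adjusted p = 0.117) or PR replicate 3 (0.22, adjusted p = 0.129) of Day+3. At Day+7 Cp had 883, 924, 1258, 2016 and 2055 CPM in CR and 1355, 1661, 1674, 1798 and 1990.5 CPM in PR. All of these exceeded every earlier tumor, with a log2 fold change of 2.44 (SE 0.12, adjusted p = 3.49e-23) against Day-1.

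Hp (chr8:109575128-109579172) encodes haptoglobin, the plasma binder of free haemoglobin. It ranged from 12.9 to 115 CPM in CR and from 23.1 to 99.1 CPM in PR at Day-1. At Day+3 it had 68.7, 131, 145, 151 and 227 CPM in CR and 74.1, 82.7, 89.5, 97.4 and 149 CPM in PR, and at Day+7 it had 367, 384, 545, 659 and 737 CPM in CR and 318, 389, 390.0, 532 and 659.7 CPM in PR. The Day+3 tumors overlapped with Day-1 and the Day+7 tumors did not. The log2 fold change against Day-1 was 0.83 (SE 0.21, adjusted p = 0.000539) at Day+3 and 2.93 (SE 0.20, adjusted p = 9.97e-18) at Day+7.

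Hpx (chr7:105591613-105600137), haemopexin, which binds free haem for uptake by the liver, had the lowest counts of the genes at Day-1 and the highest fold change. Its counts at Day-1 were 7 to 36 per tumor in CR and 3 to 14 in PR, or 0.617 to 3.07 CPM and 0.228 to 1.17 CPM. At Day+7 it had 17.2, 29.6, 35.4, 45.9 and 67.6 CPM in CR and 15.04, 26.01, 34.9, 42.1 and 58.8 CPM in PR, so that the lowest of these tumors was above the highest earlier one (3.07 CPM). The log2 fold change against Day-1 was 0.98 (SE 0.22, adjusted p = 0.000126) at Day+3 and 5.33 (SE 0.19, adjusted p = 2.91e-28) at Day+7, a 40.3-fold difference and the 71st highest log2 fold change of 13194 genes. The 12 hepatocyte markers summed to 2.20 to 8.18 CPM in CR and 1.43 to 4.15 CPM in PR at Day-1, 3.57 to 5.23 CPM in CR and 2.92 to 14.1 CPM in PR at Day+3, and 1.40 to 4.26 CPM in CR and 1.42 to 5.42 CPM in PR at Day+7. Of these markers 3 passed the filter, and at Day+7 against Day-1 edgeR called 0 of them higher and 1 lower. Alb, serum albumin, was at or under 1.59 CPM in every tumor.

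The windows from 250 bases before to 50 after a start site of Hpx and of Cp are shown because these genes had large rises at Day+7. They are from RefSeq (GRCm38.p6), and the capitals mark matches of TTNNGCAA, a common form of the site of C/EBP factors, which drive acute phase genes in liver.
Hpx: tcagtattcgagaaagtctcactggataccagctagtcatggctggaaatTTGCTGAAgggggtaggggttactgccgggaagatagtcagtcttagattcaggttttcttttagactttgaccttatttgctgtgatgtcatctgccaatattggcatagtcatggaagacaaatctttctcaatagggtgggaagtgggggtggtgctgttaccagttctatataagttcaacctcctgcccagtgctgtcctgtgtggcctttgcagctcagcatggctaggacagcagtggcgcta
Cp: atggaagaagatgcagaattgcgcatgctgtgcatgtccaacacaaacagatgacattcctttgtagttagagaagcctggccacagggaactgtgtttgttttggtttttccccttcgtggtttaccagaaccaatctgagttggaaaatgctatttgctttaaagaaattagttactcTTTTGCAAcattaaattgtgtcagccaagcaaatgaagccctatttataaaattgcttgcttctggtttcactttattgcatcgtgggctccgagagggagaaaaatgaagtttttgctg
The windows are chr7:105600067-105600366 (minus strand) and chr3:19956999-19957298 (plus strand). Of the 10 genes, 8 were in the RefSeq table, with 14 windows. TTNNGCAA, on either strand, was in 3 of these windows (Hpx, Cp and Fth1) and in 10.8% of 32851 windows of all genes. TGACNNNGC, the core of the antioxidant response element, was likewise in 3 of the 14 (Blvra, Hpx and Ncoa4) and in 12.4% of all windows. Both are matches of letters, not sites.

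Alas1 (chr9:106233455-106248654) encodes the first enzyme of haem synthesis in most tissues. It averaged 49.8 CPM in CR and 48.9 CPM in PR at Day-1, 55.0 and 54.6 CPM at Day+3 and 97.8 and 103 CPM at Day+7. The log2 fold change against Day-1 was 0.10 (SE 0.05, adjusted p = 0.038) at Day+3, where 3 of 10 tumors exceeded the Day-1 range, and it was not called in CR alone (adjusted p = 0.199) or in PR alone (adjusted p = 0.12), nor without PR replicate 5 of Day+3 (0.085, adjusted p = 0.103). At Day+7 it was 1.02 (SE 0.04, adjusted p = 3.37e-25), and all 10 tumors were above every earlier one.

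The 9 genes that were higher at Day+7 differed in how much of that log2 rise was present at Day+3. The share was 71.3% for Ftl1, 67.8% for Blvra, 50.4% for Blvrb, 48.4% for Hmox1 and 40.0% for Fth1, and 28.3% for Hp, 18.4% for Hpx, 10.9% for Cp and 10.2% for Alas1. The haem breakdown and ferritin genes thus had larger shares than the plasma protein genes and Alas1. With CR and PR tumors taken apart, these 5 genes were again above the other 4: the shares of Fth1, the lowest of them, were 42.2% in CR and 38.0% in PR, and those of Hp, the highest of the others, were 31.7% and 25.1%. The shares are ratios of estimates and were not tested against each other. A share is lower where the Day+7 rise is larger, so it does not rank the Day+3 changes. At Day+3 Hpx had the highest log2 fold change of the 10 genes (0.983, with Blvra at 0.968). Hp (0.829) was above Blvrb (0.816) and Fth1 (0.446), while Cp (0.267) and Alas1 (0.105) were the lowest.

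**Figure D3:**
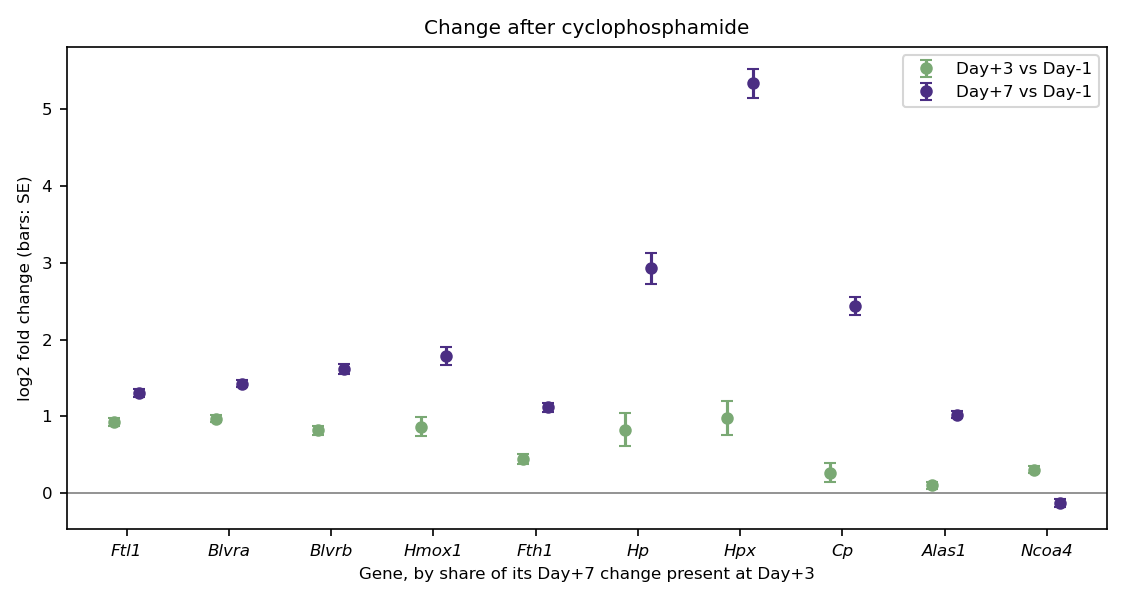
Log2 fold change with its SE at Day+3 and at Day+7 against Day-1 for the 10 genes, ordered by the share of the Day+7 change present at Day+3. Ftl1 and Blvra have most of it by Day+3, Hpx reaches 5.33 at Day+7, and Ncoa4 is above 0 at Day+3 and below it at Day+7.

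Markers of several cell types moved over the same days, and their part in these changes was not tested. The 12 macrophage markers summed to medians of 4350.4 CPM in CR and 4109.9 CPM in PR at Day-1, 12120.3 and 11946 CPM at Day+3 and 18968 and 19723 CPM at Day+7, and 11 of the 11 markers tested were higher at both later days (median log2 fold change 0.99 and 1.80). The 10 neutrophil markers summed to medians of 56.5 CPM in CR and 34.5 CPM in PR at Day-1, 89.8 and 86.2 CPM at Day+3 and 783 and 582 CPM at Day+7. All 10 were higher at Day+7 and 4 were higher at Day+3. Red blood cell markers summed to medians of 51.6 CPM in CR and 61.4 CPM in PR at Day-1, 18.04 and 17.6 CPM at Day+3 and 510.3 and 294 CPM at Day+7. Of the 9 tested, 2 were higher and 6 lower at Day+3, and 8 were higher and 1 lower at Day+7, each against Day-1. The 8 fat cell markers summed to medians of 159 CPM in CR and 129.8 CPM in PR at Day-1, 214 and 175 CPM at Day+3 and 398 and 367 CPM at Day+7. Of these 8, 2 were higher and 1 lower at Day+3, and 5 were higher and 1 lower at Day+7. Of the 8 T cell markers, 0 were higher and 3 lower at Day+3 and all 8 were higher at Day+7 (median log2 fold change 1.91). Of the 7 fibroblast markers, 6 were higher at Day+3 (median 1.17), 4 were higher and 3 lower at Day+7 against Day-1, and 6 were lower at Day+7 than at Day+3. Of the 8 endothelium and the 8 skeletal muscle markers, 6 each were higher at Day+7, with 2 and 1 lower.

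Before CY, tumors differed from each other in some of these genes, and 7 of 105 pairs correlated by Pearson's r across the 26 Day-1 tumors at an adjusted permutation p under 0.05 (45 pairs of the genes with each other and 60 of a gene with the mean log2 CPM of a marker list). The strongest was Hp with the fat cell markers, with Pearson's r of 0.962 (permutation p = 1e-05, adjusted p = 0.00035) and Spearman's rho of 0.906 (permutation p = 1e-05, adjusted p = 0.00105), where 1e-05 is the smallest p that 100000 resamples can give. Without the 2 tumors farthest from the median of Hp, r was 0.941. It was 0.966 within CR and 0.952 within PR, and 0.978 and 0.912 in tumors with title numbers up to 14 and above. Each list mean took only the markers that passed the filter at Day-1. These were 6 of 8 for fat cells, 3 of 10 for neutrophils, 6 of 10 for red blood cells and 11 of 12 for macrophages. All 8 endothelium and all 7 fibroblast markers passed. Hp is known to be made in fat cells as well as in liver. Hp also correlated with the neutrophil markers (r = 0.774, rho = 0.740, permutation p = 1e-05 and 3e-05, adjusted p = 0.00035 and 0.00157) and with the fibroblast markers (r = 0.643, rho = 0.722, permutation p = 0.00036 and 9e-05, adjusted p = 0.00756 and 0.00315), with r of 0.678 and 0.713 without the same 2 tumors.

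Hmox1 correlated with the macrophage markers (r = 0.757, rho = 0.673, permutation p = 1e-05 and 0.00024, adjusted p = 0.00035 and 0.0063), with r of 0.651 without the 2 farthest tumors. It also correlated with the fibroblast markers by r (r = 0.615, rho = 0.481, permutation p = 0.0009 and 0.0135, adjusted p = 0.0135 and 0.101, r of 0.530 without the 2 farthest). Its r with the red blood cell markers was 0.488 (rho = 0.393, permutation p = 0.0117 and 0.0481, adjusted p = 0.0681 and 0.163, r of 0.322 without the 2 farthest), which missed the threshold. The 5 genes whose log2 CPM followed Hmox1 most closely over these tumors, of 10776 others, were F13a1 (r = 0.889), Ccl6 (0.877), Gda (0.833), Cd163 (0.808) and C6 (0.806). Of these, Cd163, the macrophage receptor for haptoglobin with haemoglobin, is in the macrophage list.

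Ftl1 correlated with the endothelium markers (r = 0.620, rho = 0.597, permutation p = 0.00084 and 0.00173, adjusted p = 0.0135 and 0.0303, r of 0.540 without the 2 farthest). Within the groups of title numbers, this r was 0.294 and 0.529, while that of the 5 pairs besides it and Hp with the fat cell markers was between 0.567 and 0.833. The 1 pair among the genes themselves was Ncoa4 with Cp (r = 0.683, rho = 0.615, permutation p = 9e-05 and 0.00108, adjusted p = 0.00236 and 0.0227, r of 0.657 without the 2 farthest). Fth1 and Ftl1 had an r of 0.202 (rho = 0.285, permutation p = 0.319 and 0.156, adjusted p = 0.541 and 0.325), and r was 0.543 without the 2 farthest tumors. Hmox1 and Blvra had an r of -0.022 (rho = -0.017, permutation p = 0.915 and 0.936, adjusted p = 0.952 and 0.98, r of -0.049 without the 2 farthest). All pairs share the library, its depth and its cell makeup.

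**Figure D4:**
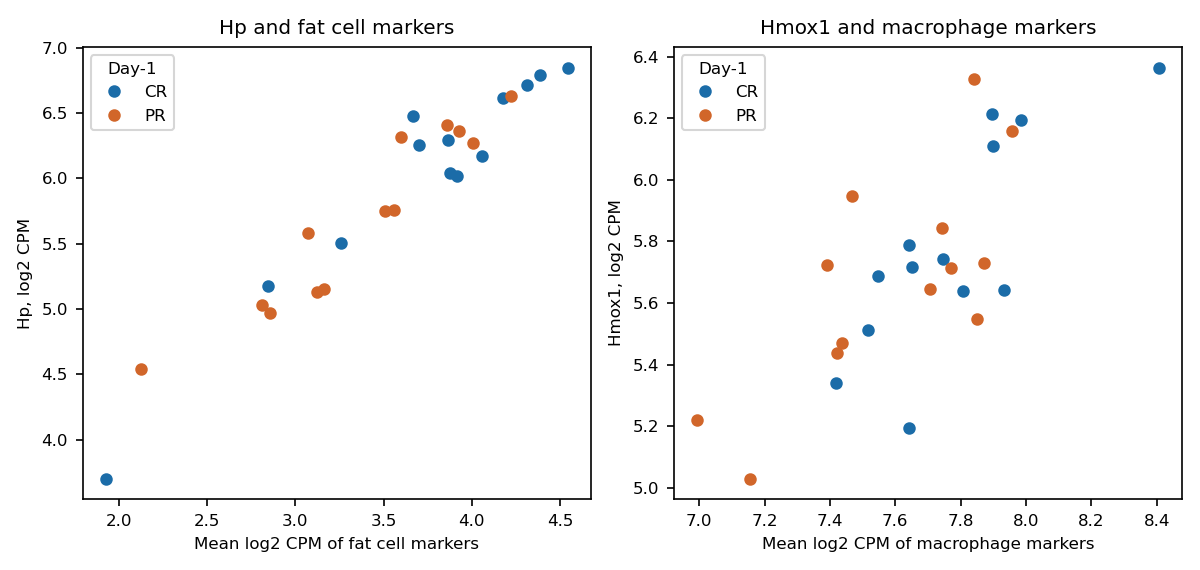
Left: log2 CPM of Hp against the mean log2 CPM of the 6 fat cell markers that passed the Day-1 filter. Right: log2 CPM of Hmox1 against the mean of the 11 such macrophage markers. Points are the 26 Day-1 tumors, CR and PR in separate colours. Hp follows the fat cell markers closely (r = 0.962) and Hmox1 follows the macrophage markers more loosely (r = 0.757), with CR and PR tumors mixed along both.

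The series was made to compare CR with PR, and none of the 10 genes was called between them on any day. With edgeR, 0 of 10 were called at Day-1 (0.00928% of 10777 genes, 1 gene), at Day+3 (0% of 11839 genes) and at Day+7 (0% of 11727 genes). At an unadjusted p under 0.05, 1, 1 and 0 of the 10 genes passed, where 1885, 256 and 333 of all genes did. DESeq2 called 0 of 10 on each day, but at Day-1 it gave Hpx no adjusted p and so did not decide on it. Limma-voom with quality weights called 1 at Day-1 (Hpx) and 0 on the later days. Over all genes at Day-1, DESeq2 called 430 and limma-voom 1188. The difference between CR and PR was not called to change from Day-1 to Day+3 (0 of 10, beside 0% of 13194 genes) or from Day-1 to Day+7 (0 of 10, beside 0.00758%), with 0 of 10 at an unadjusted p under 0.05 and 0 of 10 by DESeq2 and by limma-voom for both. For 8 of the 10 genes, the Day-1 log2 fold change of CR over PR lay between -0.08 and 0.11.

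Hpx came closest. Of the 13 CR tumors at Day-1, 10 were above the median of the day, against 3 of the 13 PR tumors, and 5 CR tumors were above the highest PR tumor. The log2 fold change was 0.96 (SE 0.26, unadjusted edgeR p = 0.000794, adjusted p = 0.133), the 12th highest of 10777 genes, on 3 to 36 counts per tumor. It was 1.01 with an adjusted p of 0.0343 by limma-voom and 0.96 with an adjusted p of 0.0959 with title number above 14 (yes or no) as a covariate. It was also called when any of 4 single tumors was left out (CR replicate 3 and PR replicates 7, 9 and 12, adjusted p from 0.0522 to 0.0784). Those 4 fits called 448, 874, 440 and 385 genes in all, in the same order. Limma-voom called 1188 of 10777 genes and the covariate fit 150, where the main fit called 1. Hpx was thus called in settings that called many more genes, which limits what its calls say. DESeq2 gave Hpx a log2 fold change of 0.97 and no adjusted p. Without the tumors over 10 CPM of Krt5 it was 1.12 with an adjusted p of 0.436, the highest of the alternatives.

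At Day+3, Hpx had 1.79, 2.15, 2.15, 2.27 and 3.03 CPM in CR and 1.08, 1.21, 1.58, 1.89 and 1.91 CPM in PR. Of the 5 CR tumors, 4 exceeded every PR tumor (log2 fold change 0.57, SE 0.21, unadjusted edgeR p = 0.0175, adjusted p = 1.0). At Day+7 the difference was 0.15 (SE 0.38, adjusted p = 0.978). The change of this difference from Day-1 to Day+7 was -0.81 (SE 0.41, adjusted p = 0.435). Hp had a log2 fold change of CR over PR of 0.41 (SE 0.26) at Day-1, 0.56 (SE 0.26) at Day+3 and 0.24 (SE 0.24) at Day+7, none of them called (adjusted p = 0.418, 1.0 and 0.967). At Day-1 the fat cell markers summed to a median of 159 CPM in CR and 129.8 CPM in PR, and the neutrophil markers to 56.5 and 34.5 CPM, and their part in these values was not tested.

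Other genes of iron and haem moved in both directions, as the table did. Symbols sorting after Pax7 were not analysed, so the lists below cover only part of their pathways. In haem synthesis outside Alas1, 6 of 8 genes were lower on each day, though not the same 6, led by Abcb10, a mitochondrial transporter needed for haem synthesis in red cell precursors (log2 fold change -0.58 at Day+3 and -1.12 at Day+7), and 1 was higher. The higher one was Alad, the second enzyme of the pathway, at Day+3 (0.31, but -0.66 at Day+7) and Alas2, the first enzyme in red cell precursors, at Day+7 (2.89). Of 9 genes of iron sensing that passed the filter, of 11 listed, 7 were higher and 2 lower on each day. Ireb2, an iron regulatory protein that binds the hairpins shown above, was lower (-0.77 and -0.83), and at Day+7 Fbxl5, which directs the iron regulatory proteins to degradation, was higher by 1.12. Hfe, a regulator of hepcidin in liver, was higher by 1.05 at Day+3.

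Of 18 listed genes of iron and haem transport and their relatives, 15 were in the count table and 13 were tested. Of these 13, 6 were higher on each day, with 5 lower at Day+3 and 6 lower at Day+7. Hmox2, the constitutive haem oxygenase, was higher (0.58 and 0.88), where Hmox1 had 0.87 and 1.79. It is named for its p and did not have the largest rise. From Day-1 to Day+7 the median of Ltf went from 0.626 to 23.3 CPM in CR and from 0.495 to 16.9 CPM in PR. That of Lcn2 went from 5.87 to 113 CPM in CR and from 2.70 to 128 CPM in PR. Both are also among the neutrophil markers. Flvcr1, a haem exporter, was lower at Day+3 (-0.95), and Cubn, a receptor that takes up transferrin, at Day+7 (-2.24). Of 15 genes of iron-sulphur cluster assembly, 8 were higher on each day, with 5 lower at Day+3 and 7 lower at Day+7. Ciao1, of the cytosolic assembly machinery, was higher at Day+3 (0.69) and Iscu, the mitochondrial scaffold, at Day+7 (0.74).

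Of 17 genes of the NRF2 and BACH1 axis, the transcription factors known to drive and to repress Hmox1, 5 were higher and 9 lower at Day+3, and 10 were higher and 7 lower at Day+7. Gclc, the catalytic subunit of the enzyme that starts glutathione synthesis, was lower at both days (-0.95 and -1.01). Osgin1, an oxidative stress response gene, was higher at Day+3 (1.46) and Maff, a small Maf factor, at Day+7 (1.74). Between CR and PR, edgeR called none of these genes on any day.

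**Figure D5:**
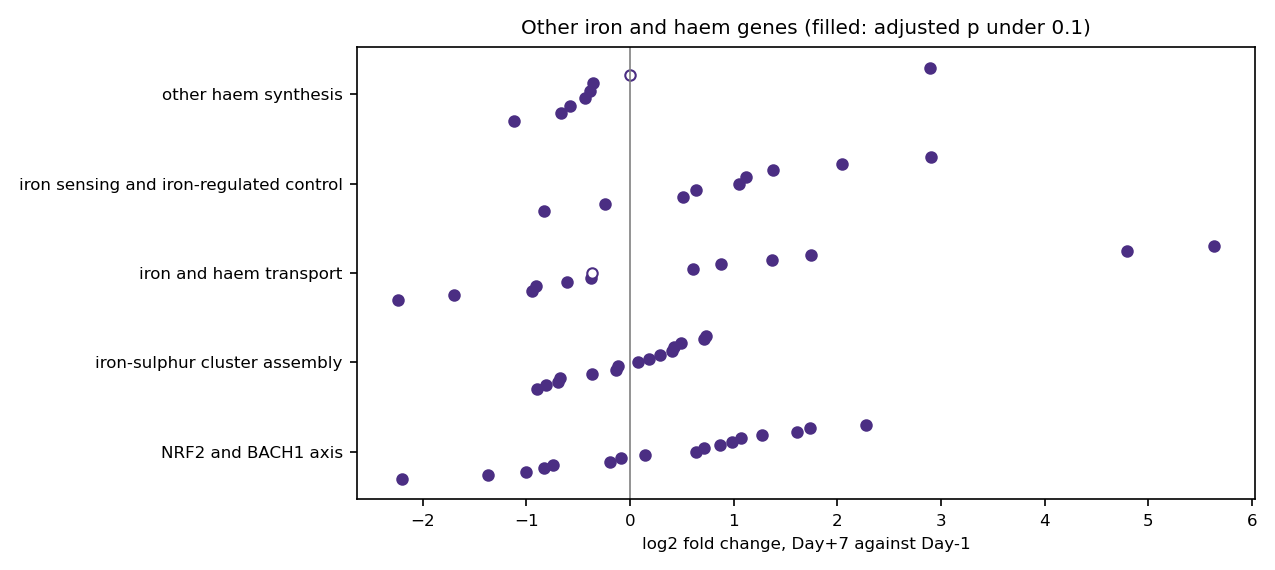
Log2 fold change at Day+7 against Day-1 of the other iron and haem genes tested, 1 line of points per list, filled where the adjusted p was under 0.1. Most haem synthesis genes lie below 0 and most iron sensing genes above it, and the other 3 lists lie on both sides.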

How the data were processed

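Per the submitters' processing notes, reads were pseudoaligned with kallisto to GRCm38.p6. The kallisto version and the step from transcripts to genes are not given in the sources used here, and the labels and the methods give different read lengths. The deposited table holds whole-number counts per gene symbol, which the authors left unnormalized. Of its 46012 entries, the last (Pax7) was incomplete and left out, and symbols sorting after it were not analysed here, so the totals are partial. In total, 0 columns had no sample.

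In R 4.3.3, edgeR 4.0.16 (TMM, filterByExpr, glmQLFit in its older form, glmQLFTest) was run with calls at an FDR under 0.1. The CR tumors of a day were set against its PR tumors. Time, and its difference between CR and PR, was tested in 1 fit of all 46 tumors with a mean for each of the 6 groups. SE is the log2 fold change over the root of F. Log2 CPM has a prior count of 2. Ratios and correlations were tested by permutation with SciPy 1.17.1. Alternatives were DESeq2 1.42.0, limma 3.58.1 (voom with quality weights), other scalings, filters and thresholds, thinning, leaving out tumors, CR or PR alone, and title number above 14 as a covariate. Adding ferritin pseudogene entries to the ratio was chosen after seeing the data. The gene test was tested on simulated data first.

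The 10 genes, the lists and the marker genes were chosen with earlier results of these data known. Genes named beside them have the smallest p of their list in a direction on a day, where called, or the 5 highest r with Hmox1 or Blvra at Day-1, and 1 gene so chosen is not reported here. Nothing in the labels marks tumors as sharing a mouse, and p-values measure the spread between tumors of 1 cell line.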

Additional observations from a re-analysis of the deposited data

How the results depend on the processing

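No paired analysis was possible because the replicate numbers only name tumors in accession order and nothing in the labels pairs them. Of the 10 genes, the same number (10) was called in each time comparison under DESeq2, limma-voom, other scalings, both other filters, thinning to the smallest library, tumors of 2 days only and without the tumors over 10 CPM of Krt5. In the main fit, 77.6% of all 13194 genes were called at Day+3 against Day-1. At Day+7 it was 85.9% against Day-1 and 75.3% against Day+3, so that these counts say little by themselves. The shares of all genes under the other settings are not given here. At Day+3 against Day-1, 8 of the 10 genes were called in CR alone and in PR alone and 9 at an FDR under 0.05. At Day+7, 9 were called in CR alone. The cause of these and the following differences was not tested, beyond the smaller number of tumors.

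Between CR and PR at Day-1, edgeR called 1 gene, DESeq2 430, limma-voom 1188, the title number covariate 150, the model of all 46 tumors 8, thinned counts 3, and 0 were called without the tumors over 10 CPM of Krt5. Leaving out 1 tumor gave 1 to 874 genes. Hpx made the count of the 10 genes 1 under limma-voom and the covariate, and 0 to 1 when a tumor was left out. At Day+3 DESeq2 called 4 genes, with 0 to 1 on leaving out a tumor. At Day+7 DESeq2 called 6 and limma-voom 1, with 0 to 1 likewise. For the change of the CR-PR difference, DESeq2 called 3 genes at Day+3 (0 to 10 on leaving out a tumor). At Day+7 it called 37, thinned counts gave 2, and limma-voom, the Krt5 setting and an FDR under 0.05 gave 0 (0 to 94 on leaving out a tumor).

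Without the tumors over 10 CPM of Krt5, the log2 fold change of CR over PR was -0.014 for Hmox1 at Day+3, 0.073 for Hmox1 at Day+7 and -0.013 for Hpx at Day+7, each against the sign given above and none called. Leaving out 1 tumor gave -0.014 to 0.094 for Hmox1 at Day+3 and -0.14 to 0.41 for Hpx at Day+7. The call of Cp at Day+3 was lost without replicate 3 of CR or of PR at that day (0.22 to 0.37 over all tumors left out), and that of Alas1 without PR replicate 5 (0.09 to 0.15).

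The Fth1 to Ftl1 log2 ratio without the Krt5 tumors was 0.034 between CR and PR at Day-1, -0.020 at Day+7 and -0.051 between Day+7 and Day-1. Leaving out 1 tumor gave -0.044 to 0.027, -0.020 to 0.056 and -0.062 to 0.12 between CR and PR at Day-1, Day+3 and Day+7. Of 105 correlations, 2 had an adjusted p under 0.05 within title numbers up to 14, 1 above 14, 7 within CR and 2 within PR, on fewer tumors, and these counts do not say which pairs they are. At the depth of Day-1, Hpx had 3 to 36 counts, which limits its precision, and between CR and PR at Day-1 it was not tested under the filter at 1 CPM or in thinned counts.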

Other observations

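Within a day, the spread between tumors differed by gene. At Day-1 the coefficient of variation over 26 tumors was 62.1% for Hpx, 43.8% for Hp, 25.7% for Cp and 24.6% for Hmox1, and between 7.54% and 9.61% for Ncoa4, Alas1, Blvrb, Blvra, Ftl1 and Fth1. Hmox1, Fth1 and Blvrb varied more between tumors at Day+7 (30.8%, 18.6% and 21.3%) than at Day+3 (9.37%, 5.65% and 9.03%), and Ncoa4 varied less (4.12% against 15.0%). These spreads were not tested against each other. The 5 genes whose log2 CPM followed Blvra most closely over the 26 Day-1 tumors were Ifitm1 (r = 0.758), Cstf2t (0.737), N4bp2os (0.723), Omd (0.722) and Ehd4 (0.7097).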
